A study of Mus musculus with 17 samples.

Results

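The genes described here are 38 antioxidant and glutathione enzyme genes, with their regulators, in microvessels isolated from mouse brain cortex. They were chosen by gene symbol from a list of superoxide dismutases, catalase, glutathione peroxidases, peroxiredoxins, the thioredoxin system, glutathione synthesis, the NRF2 pathway and glutathione transferases; the rule uses symbols alone, but the list was drawn up with earlier results of these data known. All 38 were among the 42687 genes of the count table, each under 1 Ensembl ID, and all 38 passed the filter on low counts that left 18753 genes for testing. Their counts in a single library ran from 16 to 3869.

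RNA was sequenced in 17 libraries from mice 10 to 11 months of age, either wild type (WT) or APP/PS1, a transgenic amyloid model of Alzheimer's disease that the sample labels write as APP. Each mouse was given 10 mg/kg of a peptide intraperitoneally, at intervals of 2 days over 2 weeks. This was either gp91-ds-tat, which blocks the oxidase NOX2, or sgp91-ds-tat as a control, and the labels NOX2 and SC were read as inhibitor and control peptide. The groups held 5 libraries of WT with control peptide, 5 of WT with inhibitor, 2 of APP/PS1 with control peptide and 5 of APP/PS1 with inhibitor. The labels do not give the sex of the mice or the promoter of the transgenes, and they speak of ipsilateral cortices taken after surgery without naming the operation. They also do not say whether each library came from a separate animal, so the p-values below measure the spread between these libraries, which may be partly technical. Replicate numbers only name libraries within a group.

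NOX2 is a membrane NADPH oxidase that makes superoxide, and the enzymes described here remove superoxide and the products formed from it. Superoxide dismutases turn superoxide into hydrogen peroxide, which catalase, the glutathione peroxidases and the peroxiredoxins reduce to water. Glutathione peroxidases draw their electrons from glutathione, which glutathione reductase regenerates, while most peroxiredoxins are recycled by thioredoxin and thioredoxin reductase. The transcription factor NRF2, held in check by KEAP1, binds antioxidant response elements near many of these genes. In brain vessels such enzymes are present in endothelial cells, mural cells and the endfeet of astrocytes.

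The samples are labelled as endothelial cells, pericytes and astrocyte endfeet, and markers of all 3 were detected in every library. Summed levels in CPM (counts scaled by the TMM-adjusted library size) were 2501 to 4525 for 8 endothelial markers, 923 to 1589 for 8 mural markers and 3070 to 5260 for 8 astrocyte markers. Neurons (2590 to 4310 CPM over 8 markers), oligodendrocytes (1441 to 2527 CPM over 6) and choroid plexus (30.5 to 8180 CPM over 7) were also represented, the last with the widest range. Erythroid markers were at 1.16 to 41.7 CPM, neutrophil markers at 0.932 to 10.1 CPM, and no marker of the 12 lists was at 0 in every library. Total counts were 7316503 to 17862965 a library. In such bulk samples, fewer cells of a type and less RNA per cell cannot be told apart.

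Where a promoter sequence was at hand, it was searched for the core of the antioxidant response element, TGACNNNGC, on both strands, because this is the element that NRF2 binds. RefSeq promoter windows of assembly GRCm38.p6, from 250 bases before to 50 after the start of transcription, matched 32 of the 38 genes in 42 windows. Sod3, Prdx6, Gsr, Gclc, Hmox1 and Gsta4 had no window. The core was present for 8 of the 32 genes (25.0%), against 13.99% of all 27025 genes, and in 19.0% of the 42 windows, against 12.4% of all 32851. The 8 were Sod1, Prdx1, Txnrd1, Srxn1, Gclm, Nfe2l2, Gstm5 and Mgst1. A match describes the letters in the window and not a bound site. The stretches around 7 of these matches are printed 5′ to 3′ on the strand of the gene, with the 9 bases of the core in capitals; they show which enzymes of the list carry the element's letters next to their start.

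Sod1 (chr16:90220686-90220734, plus strand): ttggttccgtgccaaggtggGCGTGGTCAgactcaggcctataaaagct
Prdx1 (chr4:116685446-116685494, plus strand): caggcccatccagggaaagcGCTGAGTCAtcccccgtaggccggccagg
Txnrd1 (chr10:82859094-82859142, plus strand): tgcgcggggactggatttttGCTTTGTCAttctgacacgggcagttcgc
Gclm (chr3:122245403-122245451, plus strand): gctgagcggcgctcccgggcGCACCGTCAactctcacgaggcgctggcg
Nfe2l2 (chr2:75704875-75704913, minus strand): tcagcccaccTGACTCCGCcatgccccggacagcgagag
Gstm5 (chr3:107895792-107895840, plus strand): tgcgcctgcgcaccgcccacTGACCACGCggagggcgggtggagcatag
Mgst1 (chr6:138140451-138140499, plus strand): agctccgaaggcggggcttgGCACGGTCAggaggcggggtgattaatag

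In Sod1, Prdx1, Txnrd1, Gclm and Mgst1 the core reads on the strand opposite to the gene, so that its reverse complement is printed. The first capital lies 133 bases before the start in Prdx1, 134 in Gclm, 92 in Txnrd1, 56 in Sod1 and in Mgst1, 42 in Gstm5 and 240 in Nfe2l2. In Srxn1 the match begins 28 bases past the start. The match in Prdx1 also holds TGACTCA, the letters of an AP-1 element, on the strand opposite to the gene; this was so in 1 of the 8 genes and in 3.66% of all windows with the core.

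Per length of exon, Gstm1, Txnip, Gpx4, Gstm5 and Gpx1 had the highest levels of the 38 genes. The mean over the 17 libraries, in CPM per kilobase of exon, was 38.03 ± 8.76 (SD, n = 17) for Gstm1, a cytosolic glutathione transferase. Txnip, which binds thioredoxin and inhibits it, was at 33.2 ± 16.3 (SD, n = 17). Gpx4, the glutathione peroxidase that reduces lipid peroxides in membranes, was at 26.0 ± 4.82 (SD, n = 17). Gstm5, another glutathione transferase, was at 20.2 ± 2.16 and Gpx1, the main cytosolic glutathione peroxidase, at 15.0 ± 3.64 (SD, n = 17 each). At the other end were Hmox1 at 1.61 ± 0.354, the glutathione synthetase gene Gss at 1.22 ± 0.169 and the glutaredoxin gene Glrx at 0.774 ± 0.121 (SD, n = 17 each). Of the 38 genes, 29 lay above the median tested gene on this scale and 4 were in its top 10%. Length was the union of all annotated exons of a gene, so this order depends on the annotation. In CPM without length, Sod2, at 79.6, was below Txnip alone, at 104. Glrx, at 4.25 CPM, was above Hmox1, Gpx7 and Nqo1, at 2.83, 2.86 and 3.23 CPM.

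Among the superoxide dismutases, the mean levels per length lay close together: 9.38 ± 1.38 CPM per kilobase for the cytosolic Sod1, 7.95 ± 0.624 for the mitochondrial Sod2 and 8.29 ± 2.42 for the secreted Sod3 (SD, n = 17 each). In CPM without length they did not: 37.3 for Sod1, 79.6 for Sod2 and 31.0 for Sod3. The exon lengths used were 3970, 10008 and 3738 bases. The peroxiredoxins ranged from 3.70 for Prdx4, the member of the endoplasmic reticulum, to 12.3 for the cytosolic Prdx1. Within the NRF2 pathway, Hmox2, the constitutive heme oxygenase, was at 9.45 ± 1.29, while the inducible Hmox1 was at 1.61 and the quinone reductase gene Nqo1 at 2.08 ± 0.817 (SD, n = 17). Nfe2l2, which encodes NRF2, was at 8.58 ± 1.83 and Keap1 at 6.86 ± 0.561 (SD, n = 17 each). Neighbours in this order were mostly not separable: of 37 neighbouring pairs, 9 kept their order in 14 or more libraries and 1, Gss above Glrx, kept it in all 17. Reads of Sod1, Prdx2, Prdx5, Txnrd2, Gss, Hmox2, Gclm and Gstm5 may be shared with expressed genes that overlap them on the other strand, since the strand setting of the counting is not given in the sources used here. Glutathione transferases of the Gstm cluster and Gstp1 also have near-identical relatives, and their split is uncertain.

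**Figure D1:**
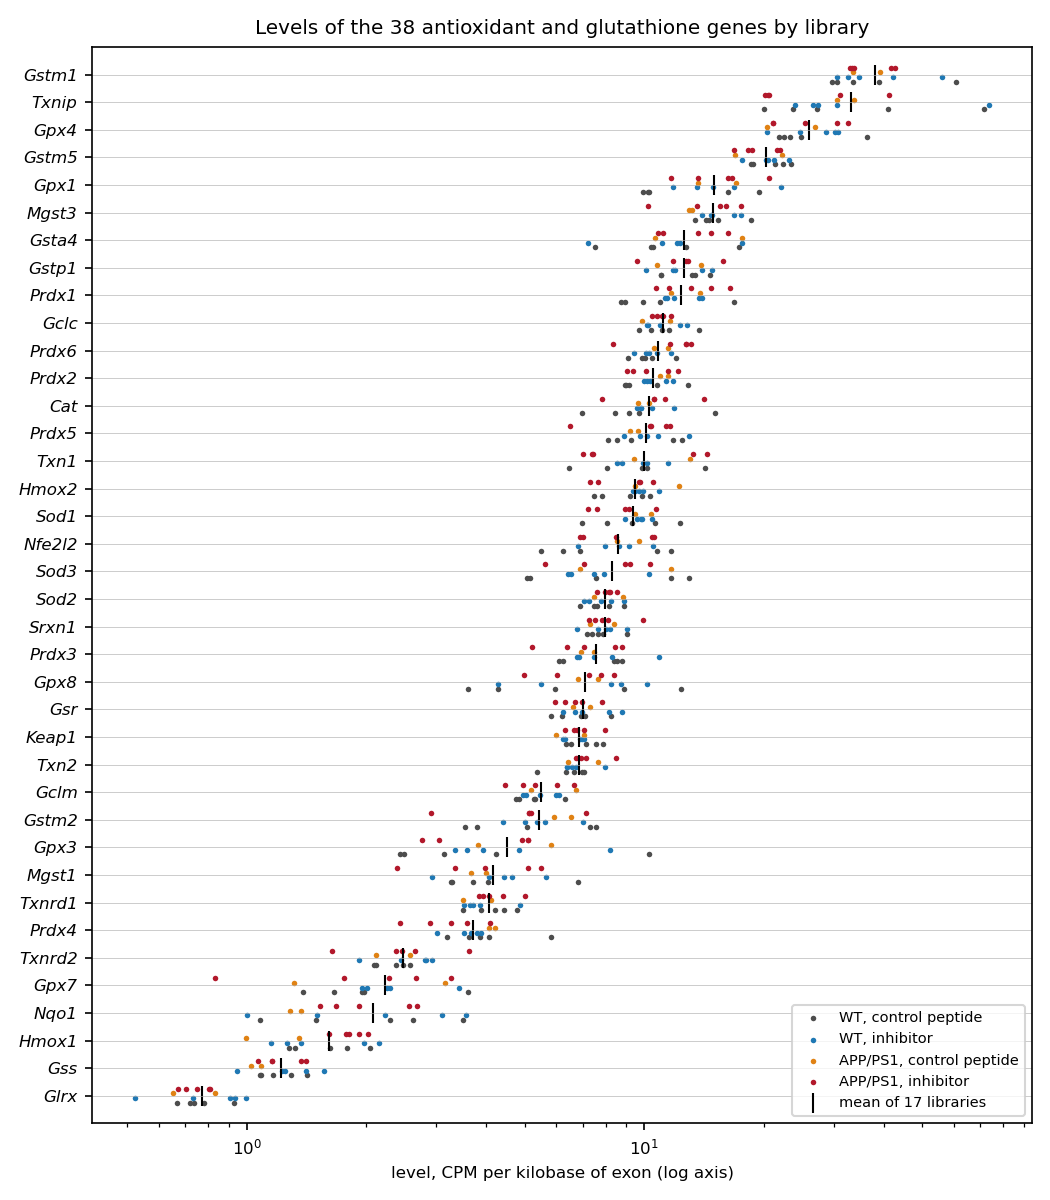
Level of each of the 38 genes in each library, in CPM per kilobase of exon on a log axis, ordered by the mean; points are libraries coloured by group and the black ticks are means over 17 libraries. Gstm1 and Txnip lead at means of 38.03 and 33.2, Glrx is lowest at 0.774, and the 4 groups are mixed along nearly every row.

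The comparison of APP/PS1 with WT over both peptides asks whether the antioxidant genes differ with the amyloid genotype. None of the 38 passed the test of genotype (edgeR's quasi-likelihood F test, adjusted p under 0.05 over all 18753 genes): 0 rose and 0 fell, and 0 had an unadjusted p under 0.05. DESeq2 likewise gave 0 by either measure. Of all genes, 0.587% were called in this comparison and 6.31% had an unadjusted p under 0.05. The median log2 change of the 38 was -0.01, with 16 estimates above 0, and that of all genes was 0.00. The estimates lay between -0.35 for Txnip and 0.19 for Gsta4, a transferase that conjugates lipid aldehydes. For 34 of the 38, the 95% interval of the change lay inside 1.5-fold in either direction, and for all 38 it lay inside 2-fold; the 4 beyond 1.5-fold were Gpx3, Gpx7, Nqo1 and Txnip. No member had all its APP/PS1 libraries on one side of all its WT libraries, while 0.272% of all genes did.

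By role, 3 of 4 superoxide dismutase and catalase genes had an estimate above 0, with a median of 0.05. Of the glutathione peroxidases 1 of 5 did (median -0.06), of the peroxiredoxins 3 of 6 (-0.02), and of the thioredoxin system 4 of 7 (0.02). Glutathione synthesis and reduction had 1 of 4 above 0 (-0.06), the NRF2 pathway 2 of 5 (-0.01) and the glutathione transferases 2 of 7 (-0.08). Roles were not tested as sets, and none of the single genes passed.

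Prdx6 (ENSMUSG00000026701, chr1:161240112-161251219 in GRCm38), a peroxiredoxin that uses glutathione and also acts on phospholipids, had the smallest p of the genotype comparison. Its CPM values were 47.5, 43.7, 50.3, 57.7 and 48.3 in WT with control peptide and 48.5, 45.4, 51.6, 49.5 and 55.9 in WT with inhibitor. They were 50.8 and 55.1 in APP/PS1 with control peptide and 40.1, 63.1, 61.1, 55.8 and 61.1 in APP/PS1 with inhibitor. The 3 highest values of all belonged to APP/PS1 with inhibitor, and so did the lowest, that of replicate 1, so the genotypes overlapped. The log2 change was 0.14 (SE 0.086, 95% interval -0.04 to 0.32, unadjusted p = 0.123, adjusted p = 0.882 by edgeR). Without that lowest library it was 0.19, with an unadjusted p of 0.0122 and an adjusted p of 0.474 by edgeR. With microglial marker level as a covariate it was -0.12; microglial markers summed to 214 to 291 CPM in WT and 263 to 493 CPM in APP/PS1 libraries.

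Mgst3, a microsomal glutathione transferase, averaged, in CPM, 16.7 ± 2.20 (SD, n = 5) with control peptide and 17.1 ± 1.67 (SD, n = 5) with inhibitor in the WT mice, and 14.4 ± 0.153 (SD, n = 2) with control peptide and 16.01 ± 3.09 (SD, n = 5) with inhibitor in the APP/PS1 mice. Its log2 change with genotype was -0.14 (SE 0.10, 95% interval -0.36 to 0.07, unadjusted p = 0.187 by edgeR). The libraries of the 4 groups overlapped, apart from APP/PS1 with control peptide, where 14.3 and 14.5 lay just under the lowest WT value with that peptide, 14.7. With the microglial covariate the change of Mgst3 was -0.57 (unadjusted p = 0.00148, adjusted p = 0.0817 by edgeR), and without APP/PS1 inhibitor replicate 1 it was -0.083 (unadjusted p = 0.378 by edgeR). Txn2, the mitochondrial thioredoxin, averaged 27.3 ± 2.88 (SD, n = 5) with control peptide and 28.7 ± 2.75 (SD, n = 5) with inhibitor in the WT mice, and 29.6 ± 3.70 (SD, n = 2) with control peptide and 30.4 ± 3.09 (SD, n = 5) with inhibitor in the APP/PS1 mice. Its change was 0.10 (-0.07 to 0.26, unadjusted p = 0.237 by edgeR) and became -0.13 with the microglial covariate; it was 0.058 without APP/PS1 control replicate 1 and 0.057 without APP/PS1 inhibitor replicate 5. Under that covariate 13 of the 38 genes had an unadjusted p under 0.05, all 13 of them lower in APP/PS1, where 10.7% of all genes were lower by the same rule. In either direction it was 18.5% of all genes, against 6.31% without the covariate (edgeR). Microglial markers themselves differ with genotype, so that covariate and genotype cannot be told apart fully, here and in the comparisons below. The smallest adjusted p of a member in that fit was 0.0797 by edgeR, so 0 were called.

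**Figure D2:**
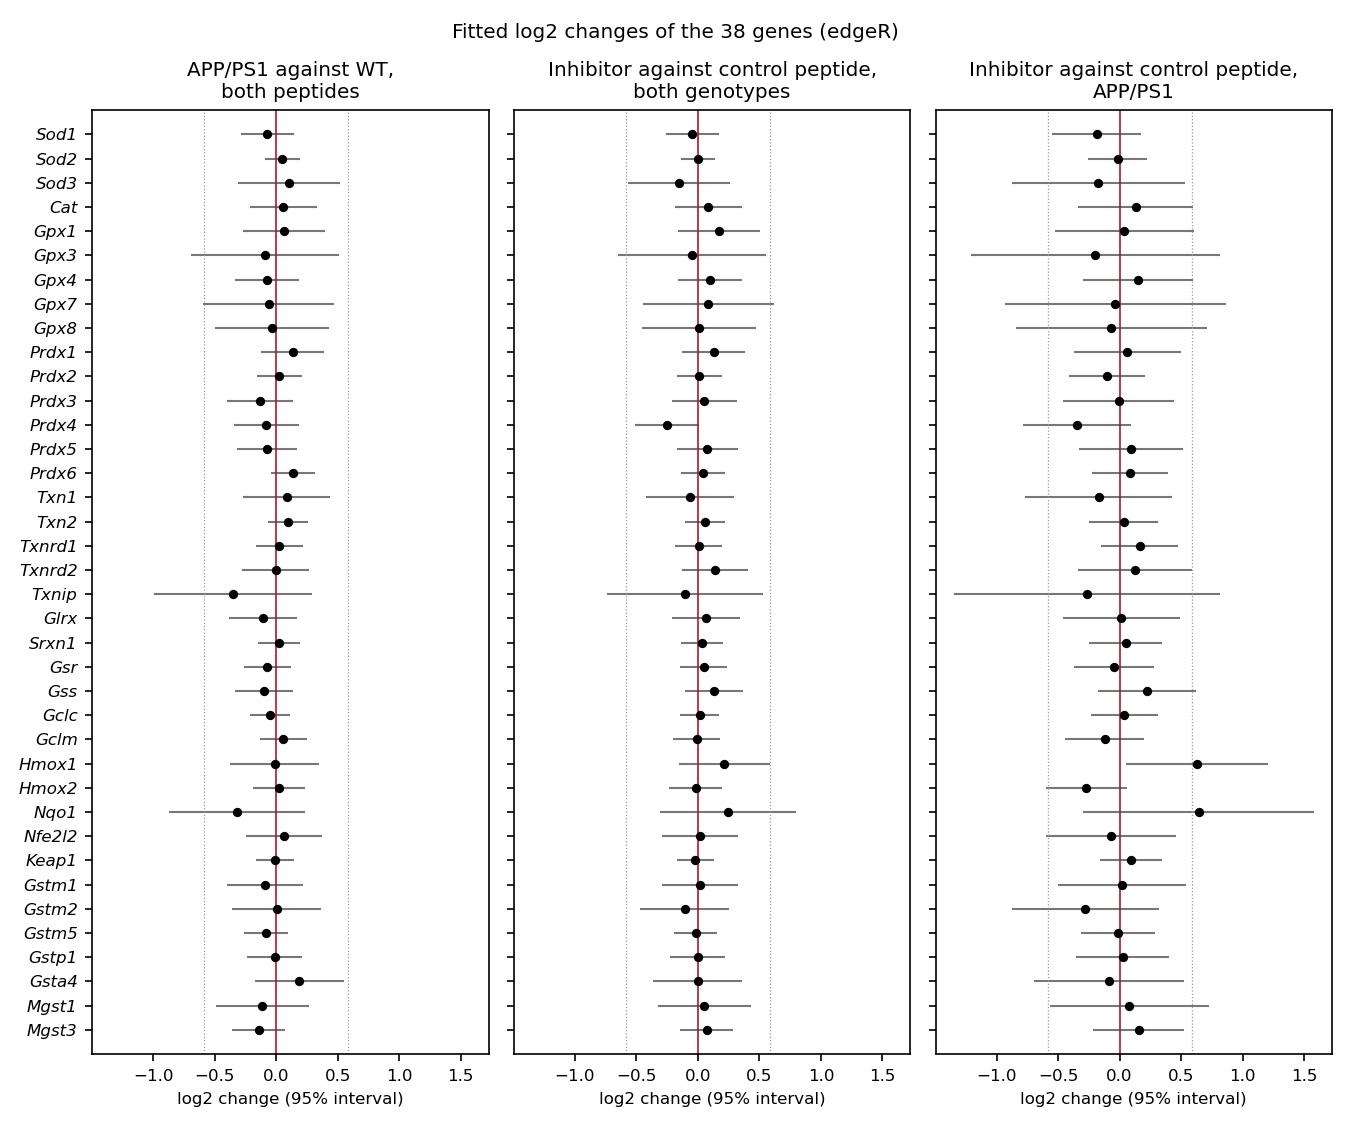
Fitted log2 changes of the 38 genes (points) with 95% intervals (bars) for APP/PS1 against WT over both peptides, inhibitor against control peptide over both genotypes, and inhibitor against control peptide in APP/PS1; dotted lines mark 1.5-fold. All intervals cross 0 in the first and second panels, and in the third only that of Hmox1, 0.05 to 1.20, does not.

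The comparison of inhibitor with control peptide over both genotypes asks whether the enzymes respond to NOX2 inhibition. It called 0 of the 38 (edgeR, adjusted p under 0.05), with 0 at an unadjusted p under 0.05, and DESeq2 gave 0 by both measures. Across all genes 0% were called and 2.08% had an unadjusted p under 0.05. The median change was 0.02, with 24 of 38 estimates above 0, beside 0.00 for all genes. Again 34 of the 38 intervals lay inside 1.5-fold and 38 inside 2-fold, with the same 4 genes beyond 1.5-fold. No member, and 0% of all genes, had all libraries of the inhibitor on one side of those of the control peptide.

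Prdx4 (ENSMUSG00000025289, chrX:155323918-155340754), which reduces peroxide in the endoplasmic reticulum, came closest. It was at 7.64, 8.59, 6.71, 8.13 and 12.2 CPM in WT with control peptide and 6.36, 7.72, 8.17, 7.41 and 8.003 in WT with inhibitor. In APP/PS1 it was at 8.86 and 8.57 with control peptide and 5.12, 8.64, 6.08, 7.53 and 6.88 with inhibitor. The highest value was WT control replicate 5 and the lowest APP/PS1 inhibitor replicate 1, and between these the peptides overlapped. The log2 change was -0.25 (SE 0.13, 95% interval -0.51 to 0.01, unadjusted p = 0.0589, adjusted p = 1.00 by edgeR). Leaving out WT control replicate 5 gave -0.17 (unadjusted p = 0.170 by edgeR), and leaving out WT control replicate 3 gave -0.30 (unadjusted p = 0.0266, adjusted p = 1.00 by edgeR). Its unadjusted p was also under 0.05 without WT control replicate 1, without APP/PS1 inhibitor replicate 2 and without both WT libraries in which Txnip was high (WT control replicate 1 and WT inhibitor replicate 3).

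Hmox1 had an estimate of 0.22 (-0.15 to 0.58, unadjusted p = 0.235 by edgeR) over both genotypes, and of 0.10 without APP/PS1 control replicate 2. Gss, the enzyme of the last step of glutathione synthesis, had one of 0.13 (-0.11 to 0.36, unadjusted p = 0.265 by edgeR), and of 0.080 without WT inhibitor replicate 5. Gss averaged, in CPM, 7.15 ± 0.859 (SD, n = 5) with control peptide and 7.56 ± 1.37 (SD, n = 5) with inhibitor in the WT mice, and 6.25 ± 0.253 (SD, n = 2) with control peptide and 7.29 ± 0.880 (SD, n = 5) with inhibitor in the APP/PS1 mice. By role, 5 of 6 peroxiredoxins, 5 of 7 genes of the thioredoxin system and 4 of 5 glutathione peroxidases had estimates above 0, against 1 of 4 dismutase and catalase genes. Role medians lay between -0.02 and 0.08 on the log2 scale.

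Within the APP/PS1 mice, inhibitor against control peptide compares 5 libraries with 2. None of the 38 was called (edgeR, adjusted p under 0.05) and 0% of all genes were; 1 member, Hmox1, had an unadjusted p under 0.05, as did 1.73% of all genes, and DESeq2 gave the same counts of members. Hmox1 (ENSMUSG00000005413, chr8:75093621-75100589) encodes the inducible heme oxygenase, a target of NRF2 that breaks down heme. It was at 2.37 and 1.75 CPM in APP/PS1 with control peptide and 3.35, 3.54, 2.82, 3.18 and 3.11 with inhibitor, so that the groups did not overlap. In WT it was at 2.31, 2.83, 2.24, 3.57 and 3.14 with control peptide and 3.46, 2.40, 3.77, 2.21 and 2.02 with inhibitor, and these overlapped with each other and with both APP/PS1 groups. The log2 change in APP/PS1 was 0.63 (SE 0.28, 95% interval 0.05 to 1.20, unadjusted p = 0.0340, adjusted p = 1.00 by edgeR). It rested on the lower control library: without APP/PS1 control replicate 2 it was 0.44 (unadjusted p = 0.229 by edgeR), and without replicate 1 it was 0.88 (unadjusted p = 0.0362 by edgeR).

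Nqo1 (ENSMUSG00000003849, chr8:107388225-107403206), another NRF2 target, also had no overlap in APP/PS1. It was at 2.12 and 2.00 CPM with control peptide and 2.97, 3.99, 2.61, 4.17 and 2.38 with inhibitor. In WT it was at 2.31, 1.68, 4.06, 5.45 and 3.56 with control peptide, and with inhibitor at 3.46, 1.56, 2.33, 4.81 and 5.52. Its range in WT thus covered all APP/PS1 values. The change in APP/PS1 was 0.64 (-0.29 to 1.58, unadjusted p = 0.167 by edgeR). These were the 2 members of 38 whose groups did not overlap here, next to 4.63% of all genes, in a comparison where 1 group holds 2 libraries.

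Hmox2 (ENSMUSG00000004070, chr16:4726361-4766742) and Prdx4 had the next smallest p in APP/PS1. For Hmox2 the values were 27.1 and 21.0 CPM with control peptide and 21.6, 21.5, 16.9, 16.2 and 23.4 with inhibitor. In WT they were 22.9, 16.6, 21.9, 20.5 and 17.4 with control peptide, and with inhibitor 24.2, 21.0, 21.5, 22.0 and 20.7. The first APP/PS1 control library was the highest of all 17, and the second lay within the inhibitor group. The change was -0.27 (-0.60 to 0.06, unadjusted p = 0.103 by edgeR), and that of Prdx4 was -0.35 (-0.79 to 0.09, unadjusted p = 0.113). For Hmox2 it rested on the first control library: it was -0.075 without APP/PS1 control replicate 1 (unadjusted p = 0.721 by edgeR) and -0.44 without replicate 2 (unadjusted p = 0.0389, adjusted p = 1.00 by edgeR). Over the 38 genes the median was 0.02, 20 estimates were above 0, and 19 intervals lay inside 1.5-fold and 34 inside 2-fold.

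**Figure D3:**
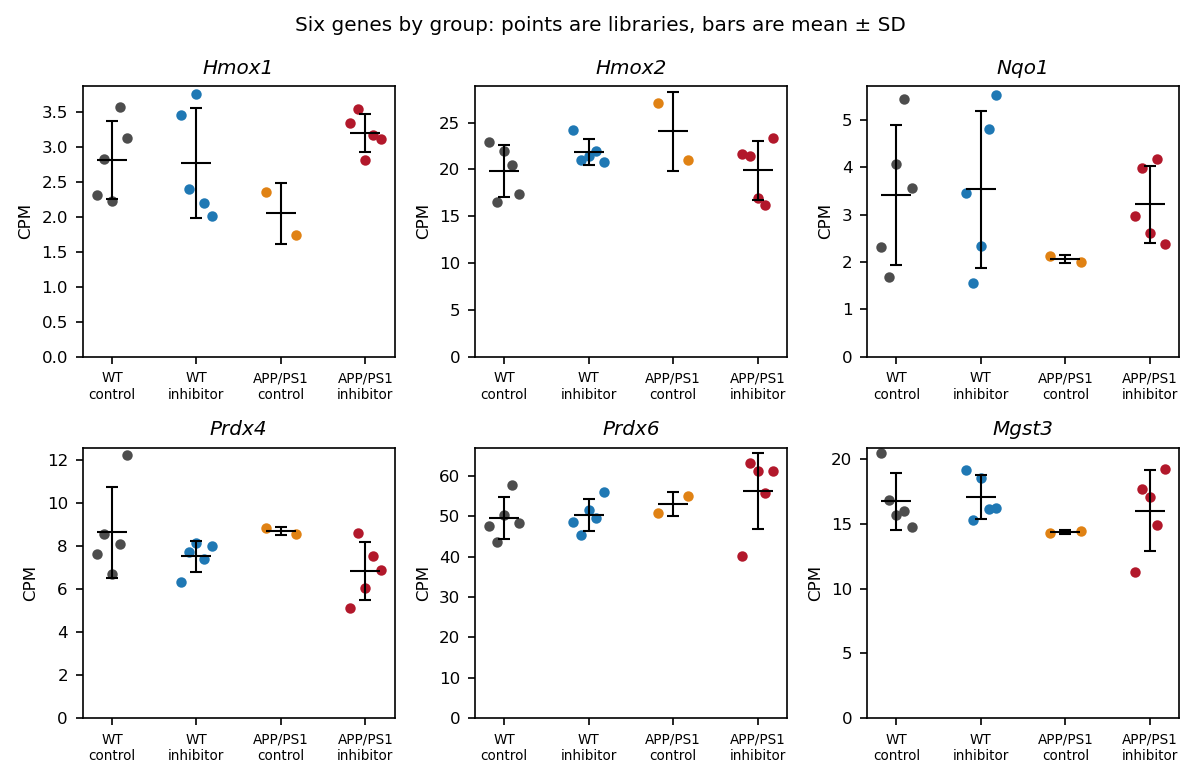
CPM of 6 genes by group; points are libraries, horizontal bars are means and whiskers are SD. Hmox1 and Nqo1 libraries of APP/PS1 with control peptide lie under all those with inhibitor, and the WT libraries of Nqo1 cover the range of both, while 1 APP/PS1 control library of Hmox1, at 1.75, lies under all those of WT.

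Among WT mice, inhibitor against control peptide called 0 members (edgeR; 0 at an unadjusted p under 0.05; 0 by both measures with DESeq2), where 0% of all genes were called and 1.32% had an unadjusted p under 0.05. The median of the 38 was 0.04 and 28 estimates were above 0; 31 intervals lay inside 1.5-fold and 38 inside 2-fold. Gpx1 averaged, in CPM, 19.1 ± 6.27 (SD, n = 5) with control peptide and 22.8 ± 5.68 (SD, n = 5) with inhibitor in the WT mice, and 22.1 ± 3.39 (SD, n = 2) with control peptide and 22.7 ± 4.89 (SD, n = 5) with inhibitor in the APP/PS1 mice. It had the smallest p, with a log2 change of 0.26 (-0.18 to 0.69, unadjusted p = 0.230 by edgeR). Prdx4 was estimated at -0.19 (-0.54 to 0.15, unadjusted p = 0.249) and Hmox2 at 0.14 (-0.12 to 0.39, unadjusted p = 0.280, both by edgeR). Single libraries moved all 3 values. Gpx1 was at 0.10 without WT inhibitor replicate 2 (unadjusted p = 0.621 by edgeR), at 0.17 without WT control replicate 3 and at 0.44 without WT control replicate 1 (unadjusted p = 0.0361, adjusted p = 1.00 by edgeR). Prdx4 was at -0.042 without WT control replicate 5, and Hmox2 at 0.079 without WT control replicate 2. No member had groups without overlap, against 0.224% of all genes.

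The interaction tests whether the inhibitor response differs between APP/PS1 and WT. It called 0 members (edgeR, 0 at an unadjusted p under 0.05, and 0 by both measures with DESeq2), with 0% of all genes called and 0.827% at an unadjusted p under 0.05. Hmox2 had the smallest p, at -0.41 (SE 0.20, 95% interval -0.83 to 0.01, unadjusted p = 0.0560 by edgeR). Hmox1 followed at 0.65 (SE 0.34, -0.07 to 1.37, unadjusted p = 0.0749 by edgeR). The third, Txnrd1, the cytosolic thioredoxin reductase, was at 0.25 (-0.14 to 0.64, unadjusted p = 0.201 by edgeR). It averaged, in CPM, 29.5 ± 3.48 (SD, n = 5) with control peptide and 27.8 ± 3.87 (SD, n = 5) with inhibitor in the WT mice, and 26.9 ± 3.08 (SD, n = 2) with control peptide and 30.1 ± 3.38 (SD, n = 5) with inhibitor in the APP/PS1 mice. The median of the 38 was -0.04 with 16 above 0, and 12 intervals lay inside 1.5-fold and 31 inside 2-fold, the fewest of the 7 comparisons. Without APP/PS1 control replicate 1, the Hmox2 interaction was -0.21 (unadjusted p = 0.385 by edgeR), and that of Txnrd1 was 0.13 (unadjusted p = 0.563 by edgeR). Without replicate 2 that of Hmox1 was 0.46 (unadjusted p = 0.278 by edgeR).

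Genotype was also compared under each peptide. With control peptide, 0 members were called (edgeR, 0 at an unadjusted p under 0.05, and 0 by both measures with DESeq2), where 0.0533% of all genes were called and 3.89% had an unadjusted p under 0.05. Lowest in p were Hmox2, at 0.28 (-0.05 to 0.61, unadjusted p = 0.0971), Nqo1 at -0.72 (-1.66 to 0.22, 0.128) and Hmox1 at -0.43 (-1.01 to 0.15, 0.134, all by edgeR). These 3 estimates use the same 2 APP/PS1 control libraries as the inhibitor comparison in APP/PS1, so they are no separate evidence. Each leans on single libraries. Hmox2 was at 0.082 without APP/PS1 control replicate 1 (unadjusted p = 0.698 by edgeR) and at 0.45 without replicate 2 (unadjusted p = 0.0364, adjusted p = 0.963 by edgeR). Nqo1 was at -0.48 without WT control replicate 4, and Hmox1 at -0.24 without APP/PS1 control replicate 2 and at -0.68 without replicate 1. With the microglial covariate Hmox2 was at 0.008 and Nqo1 at -0.44, and 7 of the 38 had an unadjusted p under 0.05, all lower in APP/PS1, where 6.75% of all genes were lower by that rule (smallest adjusted p of a member 0.170 by edgeR). The median of the 38 was 0.01, with 22 above 0, and 20 intervals lay inside 1.5-fold and 34 inside 2-fold. Mgst3 was the 1 member without overlap between the groups, against 7.53% of all genes.

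With inhibitor in both genotypes, 0 members were called (edgeR, 0 at an unadjusted p under 0.05, and 0 by both measures with DESeq2), where 0.181% of all genes were called and 3.33% had an unadjusted p under 0.05. Prdx6 was at 0.16 (-0.07 to 0.40, unadjusted p = 0.159 by edgeR). Sod1 averaged, in CPM, 37.6 ± 8.32 (SD, n = 5) with control peptide and 38.6 ± 2.21 (SD, n = 5) with inhibitor in the WT mice, and 39.5 ± 2.57 (SD, n = 2) with control peptide and 34.7 ± 5.51 (SD, n = 5) with inhibitor in the APP/PS1 mice. It was estimated at -0.15 (-0.43 to 0.12, unadjusted p = 0.257 by edgeR). Txnip was at -0.45 (-1.28 to 0.39, unadjusted p = 0.270 by edgeR), and at -0.02 without WT inhibitor replicate 3. Without APP/PS1 inhibitor replicate 1, Prdx6 was at 0.27 (unadjusted p = 0.00814, adjusted p = 0.901 by edgeR), and Sod1 was at -0.095 without APP/PS1 inhibitor replicate 3 and at -0.24 without replicate 5. With the microglial covariate Prdx6 was at -0.095, Sod1 at -0.46 (unadjusted p = 0.0141, adjusted p = 0.211 by edgeR) and Txnip at -1.48 (unadjusted p = 0.00889, adjusted p = 0.186 by edgeR). In that fit 13 of the 38 had an unadjusted p under 0.05, all lower in APP/PS1, where 9.18% of all genes were lower by that rule, and the smallest adjusted p of a member was 0.139 by edgeR. These were the same 13 genes as over both peptides, so they are no separate result. The median of the 38 was -0.04, with 14 above 0; 29 intervals lay inside 1.5-fold and 37 inside 2-fold. No member's groups were free of overlap, against 0.784% of all genes.

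Of 87 further genes of the pathway, 81 passed the filter; Gpx2, Gstm3, Gstp2, Gstp3, Gsta1 and Gsta2 did not, with at most 3 counts in a library. They comprise NRF2 partners and regulators (9 of 9 tested), other NRF2 targets (14 of 14), genes that supply NADPH (8 of 8), other glutathione genes (23 of 29), other thiol and methionine redox genes (16 of 16) and metal and selenium handling (11 of 11). None of the 81 was called in any of the 7 comparisons (edgeR, adjusted p under 0.05). An unadjusted p under 0.05 was reached by 1 gene, lower (Oplah), for genotype over both peptides, by 2, both lower (Oplah and Gstz1), with control peptide, by 1, higher (Blvra), for the inhibitor in WT, and by 0 in the other comparisons. With genotype, the smallest p was that of Oplah, the oxoprolinase of the glutathione cycle, at -0.26 (SE 0.11, unadjusted p = 0.0266, adjusted p = 0.666 by edgeR). On the higher side it was Secisbp2, which serves the insertion of selenocysteine, at 0.13 (SE 0.064, unadjusted p = 0.0543 by edgeR). With inhibitor it was Nadk, the NAD kinase, at 0.13 (SE 0.064, unadjusted p = 0.0623 by edgeR), and on the lower side the metallothionein Mt2 at -0.34 (SE 0.18, unadjusted p = 0.0720 by edgeR).

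The spread between libraries of one group differed widely among the 38 genes. After group means were taken out, the SD of log2 CPM was largest for Gpx3 (0.61), Txnip (0.61), Nqo1 (0.56) and Gpx7 (0.56), and smallest for Sod2 and Keap1 (0.12 each). Among the 1000 tested genes nearest in level to each, 10 of the 38 were in the top 10% for this SD and 23 were above the median. Gpx7, a glutathione peroxidase of the endoplasmic reticulum, averaged, in CPM, 2.72 ± 1.12 (SD, n = 5) with control peptide and 3.08 ± 0.774 (SD, n = 5) with inhibitor in the WT mice, and 2.89 ± 1.68 (SD, n = 2) with control peptide and 2.78 ± 1.19 (SD, n = 5) with inhibitor in the APP/PS1 mice. Gpx4 averaged 44.4 ± 10.4 (SD, n = 5) with control peptide and 46.5 ± 7.54 (SD, n = 5) with inhibitor in the WT mice, and 40.7 ± 7.92 (SD, n = 2) with control peptide and 45.1 ± 9.17 (SD, n = 5) with inhibitor in the APP/PS1 mice. Gstm5 averaged 26.7 ± 2.76 (SD, n = 5) with control peptide and 26.2 ± 2.55 (SD, n = 5) with inhibitor in the WT mice, and 25.0 ± 4.83 (SD, n = 2) with control peptide and 24.9 ± 2.82 (SD, n = 5) with inhibitor in the APP/PS1 mice.

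Txnip (ENSMUSG00000038393, chr3:96557957-96561883) was at 224, 62.4, 85.0, 128 and 74.1 CPM in WT with control peptide and 95.6, 85.5, 231, 82.9 and 74.8 in WT with inhibitor. In APP/PS1 it was at 105 and 95.3 with control peptide and 64.2, 97.2, 64.1, 62.9 and 129 with inhibitor. WT control replicate 1 and WT inhibitor replicate 3 stood well above the other 15 libraries. Gpx3 (ENSMUSG00000018339, chr11:54902453-54910377), the secreted glutathione peroxidase, was at 18.6, 4.50, 5.69, 7.68 and 4.39 in WT with control peptide and 7.11, 8.75, 14.9, 6.497 and 6.06 in WT with inhibitor. It was at 10.6 and 6.90 in APP/PS1 with control peptide and 9.22, 9.23, 4.99, 5.53 and 8.93 with inhibitor. Gstm1 (ENSMUSG00000058135, chr3:108012255-108017973) was at 89.5, 45.0, 49.3, 57.3 and 43.7 in WT with control peptide, and with inhibitor at 51.2, 62.4, 82.6, 47.9 and 44.9. In APP/PS1 it was at 57.7 and 49.4 with control peptide, and with inhibitor at 48.6, 62.8, 49.0, 49.6 and 61.5. The same pair of WT libraries was highest for all 3 genes.

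This trio was singled out after the values were seen. Over the 17 libraries Gpx3 and Gstm1 had Pearson's r of 0.92 and Spearman's rho of 0.82 (permutation p = 1e-05, the smallest the resamples allow, and 0.00012; adjusted over 703 pairs of members 0.00527 and 0.0134). Txnip and Gstm1 had r of 0.90 and rho of 0.80 (permutation p = 3e-05 and 0.00018, adjusted 0.00527 and 0.0134). Gpx3 and Txnip had r of 0.84 and rho of 0.81 (permutation p = 5e-05 and 0.00019, adjusted 0.00586 and 0.0134). Without WT control replicate 1 and WT inhibitor replicate 3, the 2 libraries farthest from the median, r was 0.79, 0.70 and 0.61. Of the 703 pairs, 561 had a positive r, and the median r was 0.27. By Pearson's r alone, 84 positive and 0 negative pairs had an adjusted p under 0.05 (permutation test). Pairs of other genes were not computed. All pairs share library size and composition. Leaving both libraries out together left the count of called members at 0 in all 7 comparisons.

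**Figure D4:**
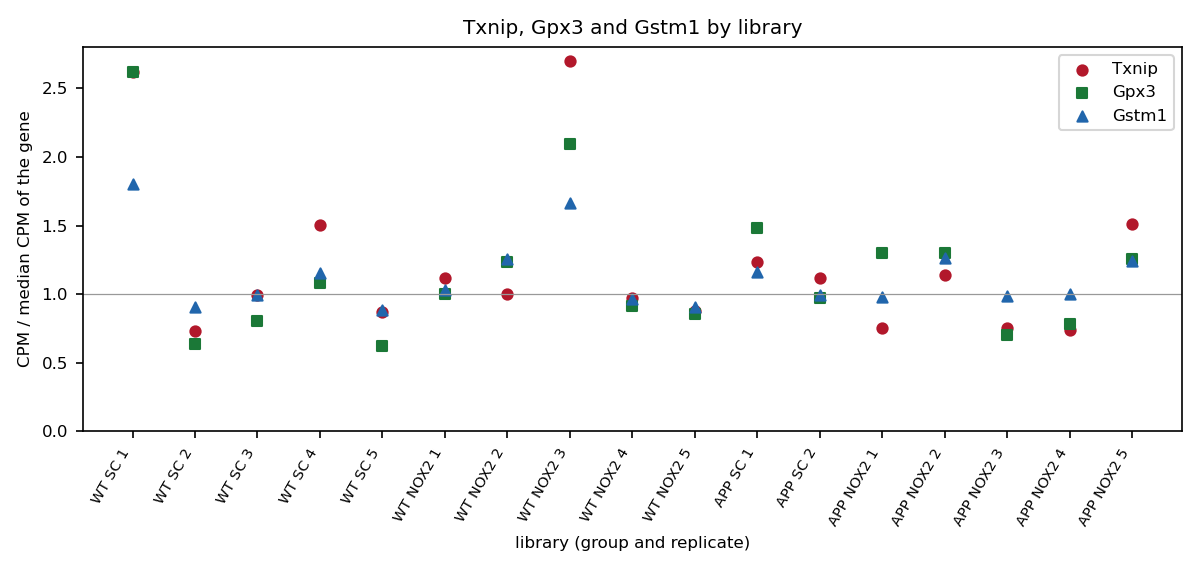
CPM of Txnip, Gpx3 and Gstm1 in each library divided by the gene's median over 17 libraries; SC is control peptide and NOX2 is inhibitor. WT SC 1 and WT NOX2 3 are the highest for each of the 3 genes, and the other 15 libraries lie closer to 1.

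The 2 libraries also had the highest summed levels of 6 perivascular macrophage markers, 85.9 CPM in WT control replicate 1 and 113 CPM in WT inhibitor replicate 3 beside 39.7 to 82.4 in the others. They had the lowest summed erythroid markers, 1.16 and 1.44 CPM. Their part in the result was not tested. The score of a marker list was the mean log2 CPM of its markers that passed the filter. These were 4 of 8 for neutrophils, 4 of 6 for erythroid cells and all in the other lists. By perivascular macrophage score WT inhibitor replicate 3 was again highest, at 3.37. WT control replicate 1, at 2.91, lay below APP/PS1 inhibitor replicates 5 and 2 and WT control replicate 4. The pair thus led in the summed level but not in the score. Each of the 38 genes was set against the score of each of 12 marker lists, which gave 456 relations. Of these, 28 passed for both Pearson's r and Spearman's rho (permutation test, adjusted p under 0.05), 25 positive and 3 negative, and they involved 17 members. The same relations were not computed for the other tested genes, so these counts cannot be read as particular to the 38. In all 28 the size of r without the 2 libraries farthest from the median score remained between 0.52 and 0.90. These 2 libraries were set for each marker list and differed between lists.

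Endothelial score was the one related to most members, 8. Txn1, the cytosolic thioredoxin, had r of 0.93 and rho of 0.89 with it (raw permutation p = 1e-05 for both, the smallest the resamples allow, adjusted p = 0.00228), and r of 0.90 without the 2 farthest libraries. Gpx7 had r of 0.77 and rho of 0.77 with the same score (permutation p = 0.00018 and 0.00034, adjusted p = 0.00821 and 0.0137). Cat, the catalase gene, went with the fibroblast score at r of 0.89 and rho of 0.90 (permutation p = 1e-05 for both, adjusted p = 0.00228), and at 0.85 without 2. Fibroblast score had 5 such members and mural score 3, Nfe2l2 among both (r of 0.73 and 0.80).

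Perivascular macrophage score was related to 6 members. Txnip had r of 0.76 and rho of 0.80 with it (permutation p = 0.00034 and 0.0003, adjusted p = 0.0119 and 0.0137). Gpx3 had r of 0.75 and Gstm1 r of 0.72. Without the 2 libraries farthest from this score's median, these r were 0.63, 0.68 and 0.65. Those libraries were WT inhibitor replicate 3 and APP/PS1 inhibitor replicate 4, and WT control replicate 1 stayed in. Nqo1 went with the choroid plexus score, at r of 0.84 and rho of 0.89 (permutation p = 7e-05 and 2e-05, adjusted p = 0.00532 and 0.00304), and at 0.86 after group means were removed. Gpx8, a peroxidase of the endoplasmic reticulum, had r of 0.75 and rho of 0.83 with that score. The 3 negative relations were with the neuron score: Txnrd2, the mitochondrial thioredoxin reductase, at r of -0.80, Nqo1 at -0.80 and Gss at -0.73. Choroid plexus markers summed to 1932 and 201 CPM in APP/PS1 control replicates 1 and 2, where Nqo1 was at 2.12 and 2.00 CPM. In APP/PS1 with inhibitor these markers summed to 455 to 4770 CPM, so the groups overlapped. With the choroid plexus score as a covariate, Nqo1 with genotype under control peptide was at -0.54 against -0.72. Whether choroid plexus content bears on the Nqo1 values of these groups was not tested. Hmox1, Hmox2, Prdx4 and Prdx6 had no relation that passed.

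**Figure D5:**
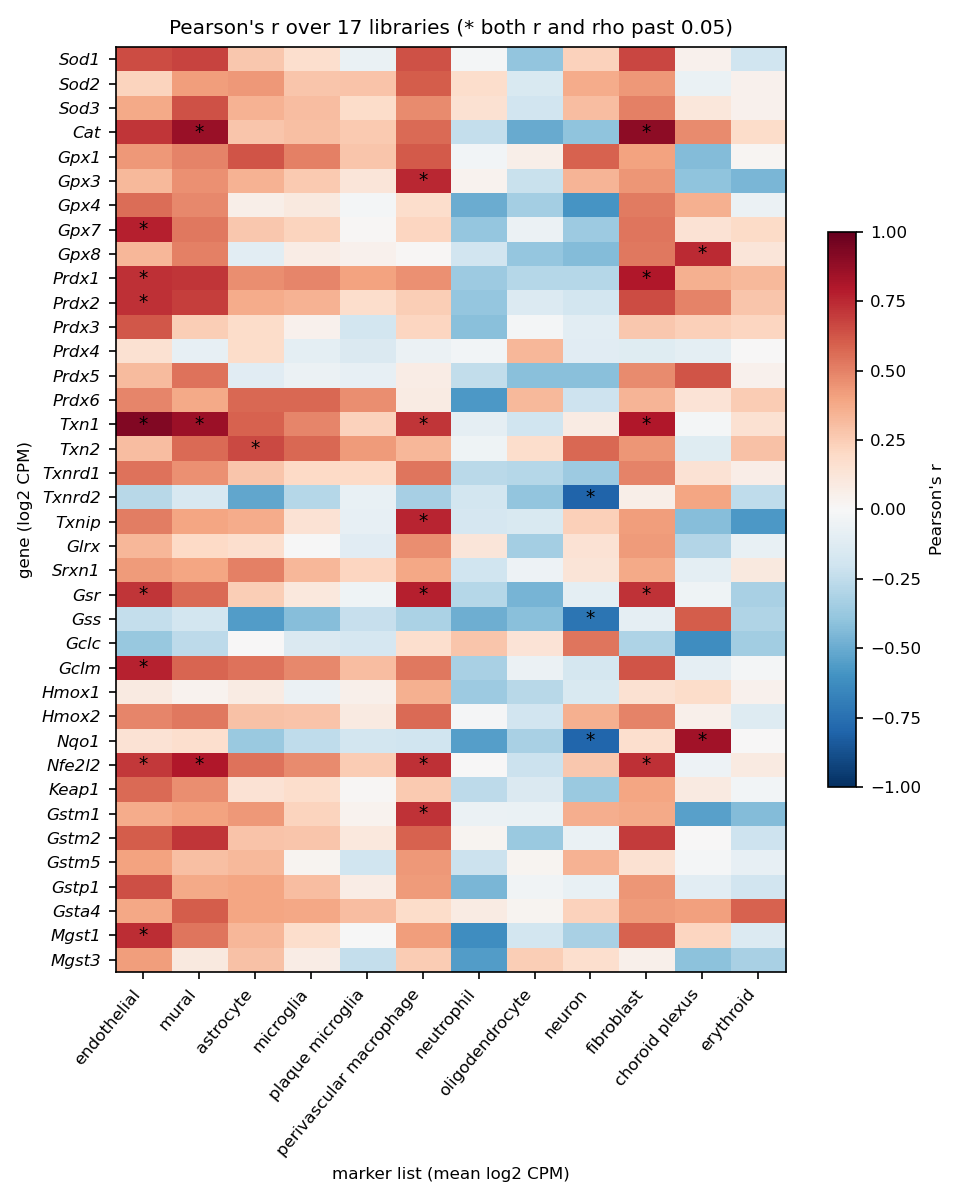
Pearson's r over 17 libraries between the log2 CPM of each of the 38 genes (rows) and the mean log2 CPM of each of 12 marker lists (columns), from blue (negative) to red (positive); stars mark the 28 relations that passed for both r and rho. The endothelial column holds 8 stars, perivascular macrophage 6, fibroblast 5, and the 3 negative stars stand in the neuron column.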

How the data were processed

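The authors deposited a table of raw read counts per Ensembl gene, with 42687 genes, and it is used as deposited. Per the labels' protocols, libraries were made from microvessel RNA after ribosomal RNA depletion with a stranded mRNA kit. Per the submitters' processing notes, cutadapt, STAR, HTSeq and DESeq2 were used and the builds mm10 and GRCh37 are listed; versions, roles and the strand setting are not given in the sources used here. A further 20 columns matched no sample and were not used. Symbols and exon lengths came from GENCODE vM21, which matched 42250 IDs and left 437 unmatched.

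Counts were filtered with filterByExpr, scaled by TMM and tested with edgeR 4.0.16 (robust quasi-likelihood F test, Benjamini-Hochberg over 18753 genes, threshold 0.05) in R 4.3.3. The procedure was also run on simulated counts with the same dispersion for every gene and no outlying libraries. Such counts are simpler than these data, so that run does not show how small changes would be found here. The comparisons over both peptides and over both genotypes came from a model with additive terms, the other 5 from contrasts of group means; all 17 libraries entered each, because 1 group holds 2. Log2 CPM values used a prior count of 2. The 95% intervals came from the estimate, its F statistic and the test's total degrees of freedom, residual plus prior. Correlations used 100000 resamples. Total counts had a median of 11342154. No library pair held identical values (0 of 136), and within groups chi-square per degree of freedom was 5.04 to 84.3. Each library was counted as 1 replicate, though this spread does not show that libraries came from separate animals.

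The members, gene lists and tests were chosen with earlier results of these data known. Values by library or group are given for members called in any comparison, the 3 with the smallest p in each, the 5 highest per length and the 4 with the largest spread. Pathway genes named are those with the smallest p in each direction. Alternatives were DESeq2 1.42.0 and its size factors, other filters, fewer groups in the fit, marker scores as covariates and each library left out.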

Additional observations from a re-analysis of the deposited data

Results flagged for a closer look

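Each of the 38 genes was examined, in log2 CPM, in the 3 groups of 5 libraries. A library was flagged when its distance to the nearest other exceeded 0.71 of the group's range. Chance meets this rule (Dixon's) in about 1 in 20 groups when values are normally distributed. Of 114 tests 9 met it, where 5.7 are expected by chance. The tests share libraries and are not independent, so that expectation is a rough guide. In WT with control peptide, replicate 4 was high for Gpx4, at 62.6 CPM beside 37.7 to 42.9 in the other 4, and for Mgst1, at 13.8 CPM beside 6.59 to 8.13. That library also held the highest choroid plexus marker level of all, 8180 CPM. Its mural markers, at 1589 CPM, were nearly level with those of APP/PS1 inhibitor replicates 5 and 2, at 1585 and 1583 CPM. Its endothelial and fibroblast markers, at 4490 and 408 CPM, were close to the highest of any library, 4525 and 413 CPM. In WT with inhibitor, replicate 3 was high for Txnip, at 230.5 CPM beside 74.8 to 95.6, and for Txnrd1, at 34.6 CPM beside 24.96 to 27.4; it also had the highest perivascular macrophage marker level, 113 CPM. In the same group Txn2 was high in replicate 2, at 33.5 CPM beside 26.9 to 28.4, and Gpx7 in replicate 4, at 4.42 CPM beside 2.51 to 2.95.

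In APP/PS1 with inhibitor, Prdx6 was low in replicate 1, at 40.1 CPM beside 55.8 to 63.1, and Prdx5, a mitochondrial and peroxisomal peroxiredoxin, was low in replicate 3, at 13.9 CPM beside 22.1 to 24.9. Txn2 was high in replicate 5, at 35.8 CPM beside 28.3 to 29.97. What these libraries share with other readouts was not tested beyond the values given.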

How the results depend on the processing

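The number of called members was 0 in all 7 comparisons and stayed 0 in all 145 alternative counts, which cover DESeq2, its size factors, other filters, fits to the compared groups alone, marker covariates and libraries left out. Of 430 alternative estimates for the 21 member and comparison pairs with the smallest p, 3 changed sign, all with microglial score as a covariate: Prdx6 at -0.12 and Txn2 at -0.13 for genotype over both peptides, and Prdx6 at -0.095 for genotype with inhibitor. Microglial markers differ with genotype, so that covariate and genotype cannot be told apart fully. Genes called among all 18753 varied more: 24 to 182 for genotype over both peptides against 110 (microglial covariate and DESeq2), 2 to 45 against 10 with control peptide and 2 to 61 against 34 with inhibitor. With a mean count of at least 50 required, Hmox1, Nqo1 and Gpx7 were not tested. No paired analysis was possible because the labels give no replicate numbers that tie libraries across groups.

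Covariates for choroid plexus and endothelial score, and leaving out WT control replicate 1 with WT inhibitor replicate 3, were chosen after seeing the data. In that last fit the Hmox1 interaction was 0.86 (unadjusted p = 0.0225) and that of Hmox2 -0.47 (0.0381, edgeR), with 0 called. Only 2 libraries of APP/PS1 had control peptide: interval half-widths had a median of 0.44 for genotype with control peptide, against 0.26 over both peptides.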
